A study of Homo sapiens with 8 samples.

Results

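The potassium channel genes are the genes whose symbol is KCN followed by letters and a number, the naming scheme for pore-forming and accessory subunits of potassium channels. Of 63677 genes in the deposited table, 95 matched, under 93 distinct symbols, since KCNJ12 and KCND1 each had 2 Ensembl identifiers. A gene was tested when it had at least 10 normalized reads in at least 4 of 8 libraries, and 51 of the 95 were. Of these 51, 40 passed in all 8 libraries, 10 in some libraries of both groups, and 1, KCNJ8, only through the shSRC1 libraries. The 51 tested genes are therefore not the whole family, and a gene that passed through one group only had to differ.

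Potassium channels are membrane proteins that let potassium leave the cell along its gradient, which sets the resting membrane potential and ends electrical signals. The family falls into structural classes. Inward rectifiers (KCNJ) and two-pore domain channels (KCNK) carry resting current. Voltage-gated channels (KCNA, KCNB, KCNC, KCND, KCNF, KCNG, KCNH, KCNQ, KCNS and KCNV) open on depolarization. Calcium-activated channels (KCNMA and KCNN) open when intracellular calcium rises, and the KCNT and KCNU genes, which were not tested, were placed in this class. Accessory subunits (KCNAB, KCNE, KCNIP and KCNMB) form no pore and change the gating or delivery of the pores they bind. In epithelial and tumor cells, which do not fire action potentials, these channels are known for roles in volume regulation, calcium entry, secretion and proliferation.

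RNA was measured in LY2 cells, a breast cancer line derived from MCF-7 that is resistant to endocrine therapy. The shSRC1 cells stably carried short hairpin RNA against NCOA1, the gene for the nuclear receptor coactivator SRC-1, and the shNT cells carried a non-targeting hairpin. Both were kept under 500 ng/mL puromycin in medium with charcoal-stripped serum and a low dose of 4-hydroxytamoxifen, the active tamoxifen metabolite. Both were then depleted of steroids for 72 h and given 1e-07 M 4-hydroxytamoxifen for 8 h before harvest, so no group was free of the drug. The labels do not say how many hairpins were used or whether each line is a pool or a clone, and they name no separate cultures, so p-values reflect the spread among these libraries alone, and that spread may be technical. Each group held 4 libraries of poly(A) RNA.

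Depth was 33771775 to 66248960 gene-assigned reads in the shSRC1 libraries and 58459196 to 67022036 in the shNT libraries, with shSRC1 replicate 2 the lowest. Mitochondrial genes took 5.28 to 5.90% of reads in the shSRC1 libraries and 5.91 to 7.88% in the shNT libraries, the highest in shNT replicate 3, and the part of this difference in the channel results was not tested. NCOA1 averaged 2036 ± 151 normalized reads in shSRC1 and 4396 ± 137 in shNT (SD, n = 4 each), a log2 fold change of -1.11. The library of shNT replicate 3 stood apart from the other shNT libraries. It held the highest or lowest shNT value in 73.2% of all tested genes and in 33 of the 51 potassium channel genes, or 64.7%. Within shSRC1, replicate 1 held the highest or lowest value in 63.2% of all tested genes and 62.7% of the channel genes. Of 7 luminal breast markers all were tested, and KRT8, KRT18 and KRT19 were higher in shSRC1. Among 5 leukocyte markers the summed level was 10.0 to 26.6 normalized reads in shSRC1 and 19.5 to 35.3 in shNT. Among 5 fibroblast markers it was 1438 to 1957 in shSRC1 and 1605 to 2164 in shNT, with none of them called. Of this sum, COL1A1 alone was 1351 to 1892 in shSRC1 and 1536 to 2039 in shNT. Among 5 neuronal markers the sum was 827 to 1077 in shSRC1 and 1157 to 1295 in shNT. SYT1 and RBFOX3 were lower in shSRC1, and SYT1 alone was 779 to 1036 in shSRC1 and 1085 to 1240 in shNT. Several channels described below are best known from neurons or muscle, and the part of these marker differences in the channel results was not tested.

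Of the 51 tested channel genes, 12 were higher in shSRC1, 8 were lower and 31 were not called (limma, adjusted p under 0.05 over all 19559 genes tested). That is 39.2% called, against 23.2% of all tested genes. By direction, 12.0% of all tested genes were called higher and 11.2% lower. The channel genes moved in both directions, with a median log2 fold change of -0.06, while the median absolute change was 0.43 on the log2 scale against 0.24 over all tested genes. Called changes of at least 2-fold were found for 9 channel genes, or 17.6%, against 3.54% of all tested genes. The 2 groups of libraries did not overlap for 18 channel genes, or 35.3%, against 29.0% of all tested genes. These shares describe the genes that passed the filter and carry no test of their own. Exons of 23 of the 51 overlap another annotated gene, and since the strand used in counting is not given, reads of such pairs cannot be told apart. By class, 4 of 8 tested two-pore genes were higher and 0 lower, with 4 higher and 3 lower among 21 voltage-gated genes. Of 8 inward rectifiers 2 were higher and 1 lower, and of 3 calcium-activated genes 1 was higher and 1 lower. Of 11 accessory subunits 1 was higher and 3 were lower.

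**Figure D1:**
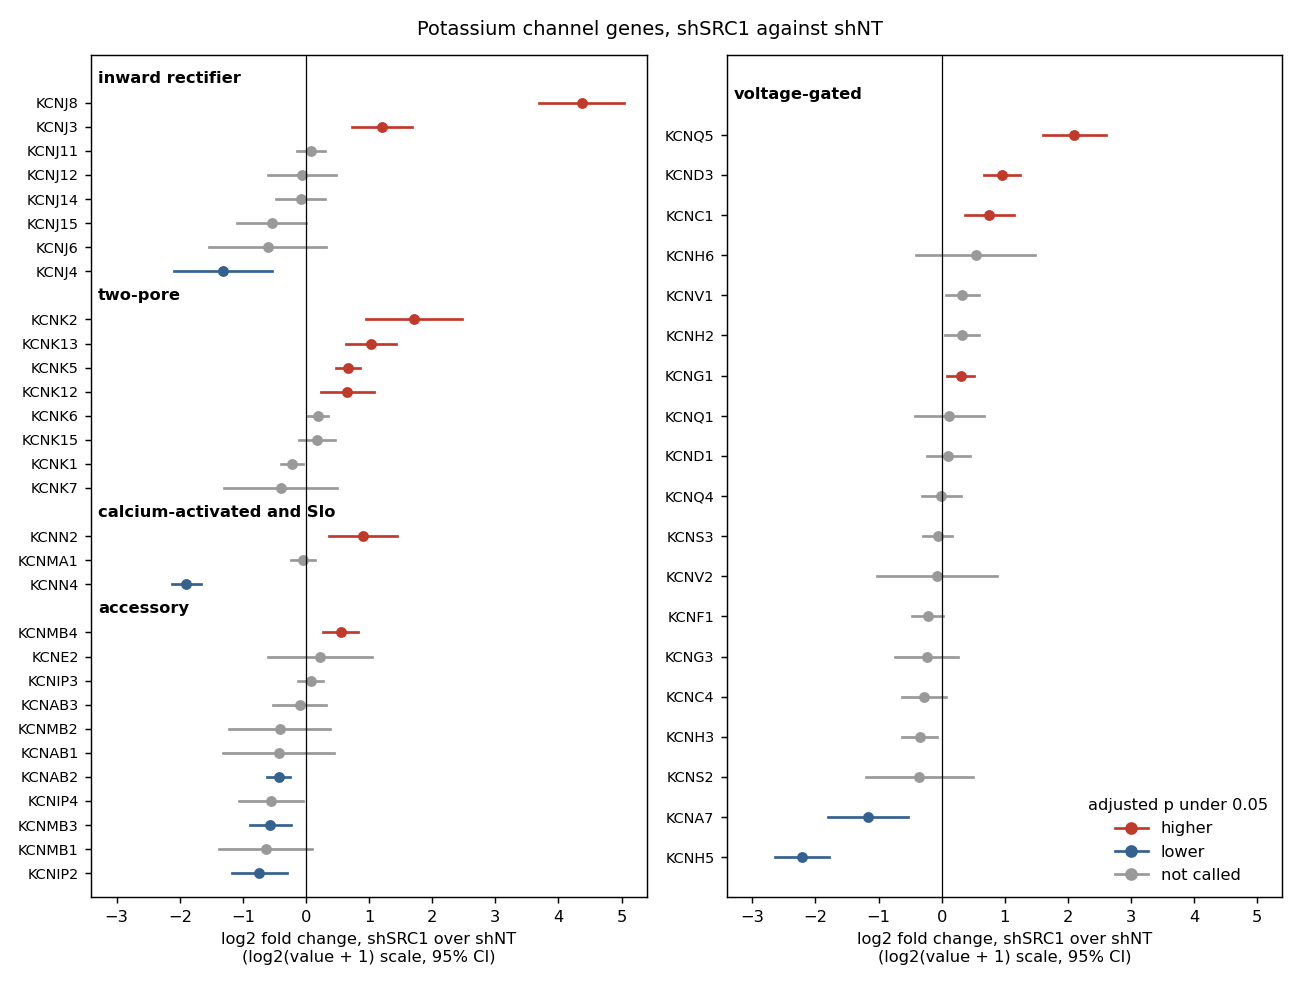
Log2 fold change of shSRC1 over shNT on the log2(value + 1) scale for 49 of the 51 tested potassium channel genes, by class, with points for the limma estimate and bars for its 95% confidence interval (n = 4 libraries per group). KCNJ8 at 4.37 lies farthest right, and KCNH5 at -2.21 and KCNN4 at -1.90 lie farthest left.

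The 5 channel genes with the smallest adjusted p and a single RefSeq promoter window were KCNJ8, KCNQ5, KCNK5, KCNN4 and KCNH5. Their windows, 250 bases before to 50 after the transcription start, are printed 5′ to 3′ on the gene's strand as RefSeq gives them on GRCh38.p14, to show the DNA at the starts of the genes that moved most clearly in each direction. Capitals mark the GC box GGGCGG, the CCAAT box and the nuclear receptor core site GGTCA on either strand; a run of capitals can hold overlapping matches. The KCNJ8 window is chr12:21774657-21774956 on the minus strand, KCNQ5 chr6:72621814-72622113 on the plus strand, KCNK5 chr6:39229426-39229725 on the minus strand, KCNN4 chr19:43780924-43781223 on the minus strand and KCNH5 chr14:63045409-63045708 on the minus strand.
KCNJ8: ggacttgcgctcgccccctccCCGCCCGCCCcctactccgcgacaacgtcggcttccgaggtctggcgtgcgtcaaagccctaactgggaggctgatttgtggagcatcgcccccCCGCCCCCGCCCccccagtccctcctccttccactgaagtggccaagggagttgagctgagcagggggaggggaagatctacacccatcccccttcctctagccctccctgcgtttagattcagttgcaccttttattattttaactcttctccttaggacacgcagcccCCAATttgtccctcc
KCNQ5: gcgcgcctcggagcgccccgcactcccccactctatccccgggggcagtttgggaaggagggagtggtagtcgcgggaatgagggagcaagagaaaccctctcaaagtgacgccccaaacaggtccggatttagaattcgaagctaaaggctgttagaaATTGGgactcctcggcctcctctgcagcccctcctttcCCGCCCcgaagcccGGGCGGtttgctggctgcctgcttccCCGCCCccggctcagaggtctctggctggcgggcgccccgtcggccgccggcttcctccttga
KCNK5: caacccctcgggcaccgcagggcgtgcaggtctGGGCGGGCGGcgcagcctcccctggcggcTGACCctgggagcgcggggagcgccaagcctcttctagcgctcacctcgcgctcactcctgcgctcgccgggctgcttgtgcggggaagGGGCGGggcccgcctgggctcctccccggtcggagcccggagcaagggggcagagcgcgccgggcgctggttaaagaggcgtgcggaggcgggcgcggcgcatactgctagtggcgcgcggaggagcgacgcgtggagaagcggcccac
KCNN4: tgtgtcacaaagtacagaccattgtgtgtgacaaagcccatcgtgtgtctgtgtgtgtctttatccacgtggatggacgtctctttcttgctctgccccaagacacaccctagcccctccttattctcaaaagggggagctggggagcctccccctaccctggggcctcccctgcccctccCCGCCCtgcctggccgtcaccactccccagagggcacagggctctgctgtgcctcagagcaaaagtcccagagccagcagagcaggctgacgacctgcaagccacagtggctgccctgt
KCNH5: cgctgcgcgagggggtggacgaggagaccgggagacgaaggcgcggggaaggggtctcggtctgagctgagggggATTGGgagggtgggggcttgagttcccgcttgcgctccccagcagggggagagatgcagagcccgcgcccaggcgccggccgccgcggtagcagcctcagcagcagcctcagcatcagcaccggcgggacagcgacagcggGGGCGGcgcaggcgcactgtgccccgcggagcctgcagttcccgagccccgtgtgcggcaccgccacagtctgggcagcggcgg

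The KCNJ8 window held 4 GC boxes and 1 CCAAT box and the KCNQ5 window 3 GC boxes and 1 CCAAT box. The KCNK5 window held 3 GC boxes and 1 core site, the KCNH5 window 1 GC box and 1 CCAAT box, and the KCNN4 window 1 GC box. Base composition differed among the 5, with 6 CpG pairs and 60.7% G and C in KCNN4 and 39 CpG pairs and 76.0% G and C in KCNK5. RefSeq windows were found for 37 of the 51 tested channel genes, 58 windows in all, and motifs were counted in them and in all 35116 windows of the same length. The GC box was in 51.7% of the channel windows and in 45.0% of all windows. The CCAAT box was in 36.2% of the channel windows and 34.6% of all, and the core site GGTCA in 22.4% of the channel windows and 37.4% of all. A full estrogen response element, GGTCANNNTGACC, was in 0 of the 58 channel windows and in 0.0570% of all, and the AP-1 motif TGANTCA was in 10.3% of the channel windows and 7.71% of all. The TATA motif TATAAA was in 5 of the 58 channel windows and in 11.5% of all. A match is only a run of letters, and windows without one say nothing of any factor.

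Among the inward rectifiers, 3 of 8 tested genes were called, and KCNJ8 changed most of all 51 channel genes. KCNJ8 (ENSG00000121361, chromosome 12) encodes a pore of ATP-sensitive potassium channels, which couple membrane potential to the energy state of the cell and are known best from vascular smooth muscle and pericytes. It had 75.0, 101, 87.2 and 104 normalized reads in the shSRC1 libraries, against 3.71, 3.55, 1.86 and 5.38 in the shNT libraries. All 4 shSRC1 values lay far above the highest shNT value. The means were 91.8 ± 13.3 in shSRC1 and 3.63 ± 1.44 in shNT (SD, n = 4 each), a ratio of 25.3 that rests on 346 reads in shSRC1 and 16 in shNT. The log2 fold change was 4.37 (95% confidence interval 3.70 to 5.04, SE 0.32), with a limma adjusted p of 2.63e-07. Because KCNJ8 met the filter through the shSRC1 libraries alone, groups that do not overlap were required of it, and this p is no independent evidence. In the limma fit of every gene with a read, where the filter required no difference, the adjusted p was 4.78e-11. KCNJ8 was chosen with earlier results of these data known, so this p is not independent evidence either. Leaving out any shNT library kept the log2 fold change between 4.16 and 4.55, and without any 1 shSRC1 library the gene no longer met the filter. The only annotated gene that overlaps KCNJ8 exons, AC010185.1 on the opposite strand, had 0 reads in both groups.

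The ATP-sensitive channel is built from a KCNJ8 or KCNJ11 pore and a sulfonylurea receptor. KCNJ11, the pore known from pancreatic beta cells, was far more abundant than KCNJ8 in both groups per kilobase, at 303 normalized reads per kb of transcript in shSRC1 and 286 in shNT, against 38.4 and 1.52 for KCNJ8. It had 945, 892, 745 and 816 normalized reads in shSRC1 and 833, 833, 703 and 841 in shNT. The groups overlapped, and the log2 fold change was 0.08 (95% confidence interval -0.14 to 0.30, limma adjusted p = 0.589). ABCC9, the receptor that usually pairs with KCNJ8 and lies next to it on chromosome 12, had 2855, 3144, 3473 and 3126 normalized reads in shSRC1 and 4105, 3008, 6933 and 3996 in shNT. Its groups overlapped and shNT replicate 3 was the highest of all, and the log2 fold change of -0.45 was not called (limma adjusted p = 0.168). Without shNT replicate 2 it was -0.62 and was called (limma adjusted p = 0.0229), and without shNT replicate 3 it was -0.22 (adjusted p = 0.145). ABCC8, the receptor of the beta-cell channel, averaged 276 ± 51.8 in shSRC1 and 214 ± 30.4 in shNT (SD, n = 4 each), a log2 fold change of 0.35 (limma adjusted p = 0.0994). Without shNT replicate 3 the ABCC8 change was 0.44 (limma adjusted p = 0.0416).

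KCNJ8 and ABCC9 are also used as pericyte markers, so other mural cell markers were read beside them. Of 10 pericyte and smooth muscle markers, 8 were tested, RGS5 and MCAM were higher in shSRC1 and CSPG4 was lower. RGS5, a pericyte signalling regulator, averaged 46.5 ± 1.19 normalized reads in shSRC1 and 17.9 ± 6.61 in shNT (SD, n = 4 each) with groups that did not overlap, a log2 fold change of 1.42 (limma adjusted p = 0.00463). CSPG4 averaged 64.3 ± 8.59 in shSRC1 and 99.3 ± 18.9 in shNT (SD, n = 4 each), also without overlap. Its log2 fold change was -0.61 (limma adjusted p = 0.0302). The sum of the 10 was 11426 to 17101 normalized reads in the shSRC1 libraries and 13663 to 18463 in the shNT libraries, of which NOTCH3 alone was 10569 to 16087 in shSRC1 and 12888 to 17555 in shNT. The part of these markers in the KCNJ8 result was not tested. CNN1 reached at most 0.92 and DES 2.78 in any library. The pericyte receptor gene PDGFRB had 13.7 to 31.5 normalized reads in shSRC1 and 11.1 to 26.9 in shNT. The sum of 5 endothelial markers was 222 to 289 in shSRC1 and 232 to 277 in shNT, with no PECAM1 read. Of this sum, VWF alone was 193 to 281 in shSRC1 and 227 to 266 in shNT. KDR, below the filter, had 6.65 to 29.7 normalized reads in shSRC1 and 2.67 to 5.57 in shNT. Its groups did not overlap, on 68 reads in shSRC1 and 16 in shNT. CDH5, also below the filter, went the other way, with 7 reads in shSRC1 and 30 in shNT and overlapping groups. All 8 libraries were of the LY2 line, and these marker levels do not measure the share of any cell type.

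KCNJ3 and KCNJ4 were the other called inward rectifiers and moved in opposite directions. KCNJ3 encodes a subunit of the G protein-gated channel that slows the heartbeat, and is also known from breast tumors. It had 109, 91.0, 101 and 98.1 normalized reads in shSRC1, against 43.6, 28.4, 42.7 and 61.9 in shNT. Every shSRC1 library lay above every shNT library. The log2 fold change was 1.21 (adjusted p = 0.0017, SE 0.22), a ratio of 2.26. Its partner subunits were scarce. KCNJ6 averaged 8.46 ± 4.70 normalized reads in shSRC1 and 12.1 ± 1.63 in shNT (SD, n = 4 each) and was not called (limma adjusted p = 0.317), while KCNJ5 and KCNJ9 were below the filter. KCNJ4, a strong inward rectifier of brain, had 6.65, 12.2, 9.09 and 5.50 normalized reads in shSRC1, against 14.8, 22.2, 22.3 and 28.7 in shNT. The groups did not overlap, but the gene rests on 30 reads in shSRC1 and 97 in shNT. Its log2 fold change was -1.32 (adjusted p = 0.0176, SE 0.36), and without shNT replicate 4 it was no longer called (adjusted p = 0.0576). The remaining 5 tested inward rectifiers had log2 fold changes of -0.61 to 0.08. KCNJ14, another strong rectifier, averaged 219 ± 44.9 in shSRC1 and 233 ± 56.1 in shNT (SD, n = 4 each), with overlapping groups (limma adjusted p = 0.77). Its exons overlap those of GRWD1 on the same strand, so reads of the 2 genes may not be separable. KCNJ12 has a near-identical copy in the genome and its reads are uncertain.

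The two-pore domain channels gave 4 called genes, all higher in shSRC1. KCNK2 encodes TREK-1, a channel opened by membrane stretch, heat and polyunsaturated lipids. It had 22.8, 56.0, 50.9 and 69.6 normalized reads in shSRC1, against 12.1, 10.7, 11.1 and 22.4 in shNT. The groups just failed to meet, with shSRC1 replicate 1 and shNT replicate 4 nearly equal. The log2 fold change was 1.71 (95% confidence interval 0.95 to 2.47, SE 0.36, adjusted p = 0.00386), on 188 reads in shSRC1 and 62 in shNT.

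KCNK5 encodes TASK-2, a channel opened by alkaline pH that works in kidney bicarbonate handling and cell volume regulation. It had 715, 738, 721 and 707 normalized reads in shSRC1, against 473, 439, 442 and 467 in shNT. Replicates of each group lay close together and far from the other group. Its log2 fold change of 0.66 had the smallest standard error of the called two-pore genes, 0.09 (limma adjusted p = 1.33e-04), and the ratio of means was 1.58. KCNK13 and KCNK12 encode THIK-1 and THIK-2, closely related subunits of halothane-inhibited channels. KCNK13 had 189.9, 171, 161 and 160.4 normalized reads in shSRC1, against 81.7, 111, 57.6 and 90.6 in shNT. The groups did not overlap and the log2 fold change was 1.03 (adjusted p = 0.00157, SE 0.19). KCNK12 had 99.7, 82.2, 109 and 88.0 in shSRC1, against 82.6, 48.0, 54.8 and 57.4 in shNT, so shNT replicate 1 reached into the shSRC1 range. Its log2 fold change of 0.66 (adjusted p = 0.0287, SE 0.20) did not stay called without shSRC1 replicate 1, 3 or 4 (adjusted p = 0.0734, 0.0833 and 0.0506) or without shNT replicate 2 or 4 (0.0645 and 0.0576).

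The other 4 tested two-pore genes were not called, and 3 of them were the most abundant channel genes in these cells per kilobase. KCNK15, whose TASK-5 product carries no current on its own, had 4667, 4136, 4009 and 3507 normalized reads in shSRC1 and 3969, 4017, 2634 and 3962 in shNT. The groups overlapped and shNT replicate 3 was far below the other shNT libraries. The log2 fold change was 0.18 (95% confidence interval -0.11 to 0.46, limma adjusted p = 0.344), and 0.03 without shNT replicate 3 (adjusted p = 0.847). KCNK15 exons overlap those of RIMS4 on the opposite strand, itself higher in shSRC1 (limma adjusted p = 0.00158). KCNK6, the weakly rectifying TWIK-2, had 4111, 3922, 4096 and 4054 in shSRC1 and 3808, 3404, 3435 and 3550 in shNT. Its groups did not overlap, and its log2 fold change of 0.19 (95% confidence interval 0.03 to 0.35) missed the threshold (limma adjusted p = 0.0761). KCNK1, the related TWIK-1, averaged 2062 ± 79.8 in shSRC1 and 2408 ± 201 in shNT (SD, n = 4 each), a log2 fold change of -0.22 (limma adjusted p = 0.0692).

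**Figure D2:**
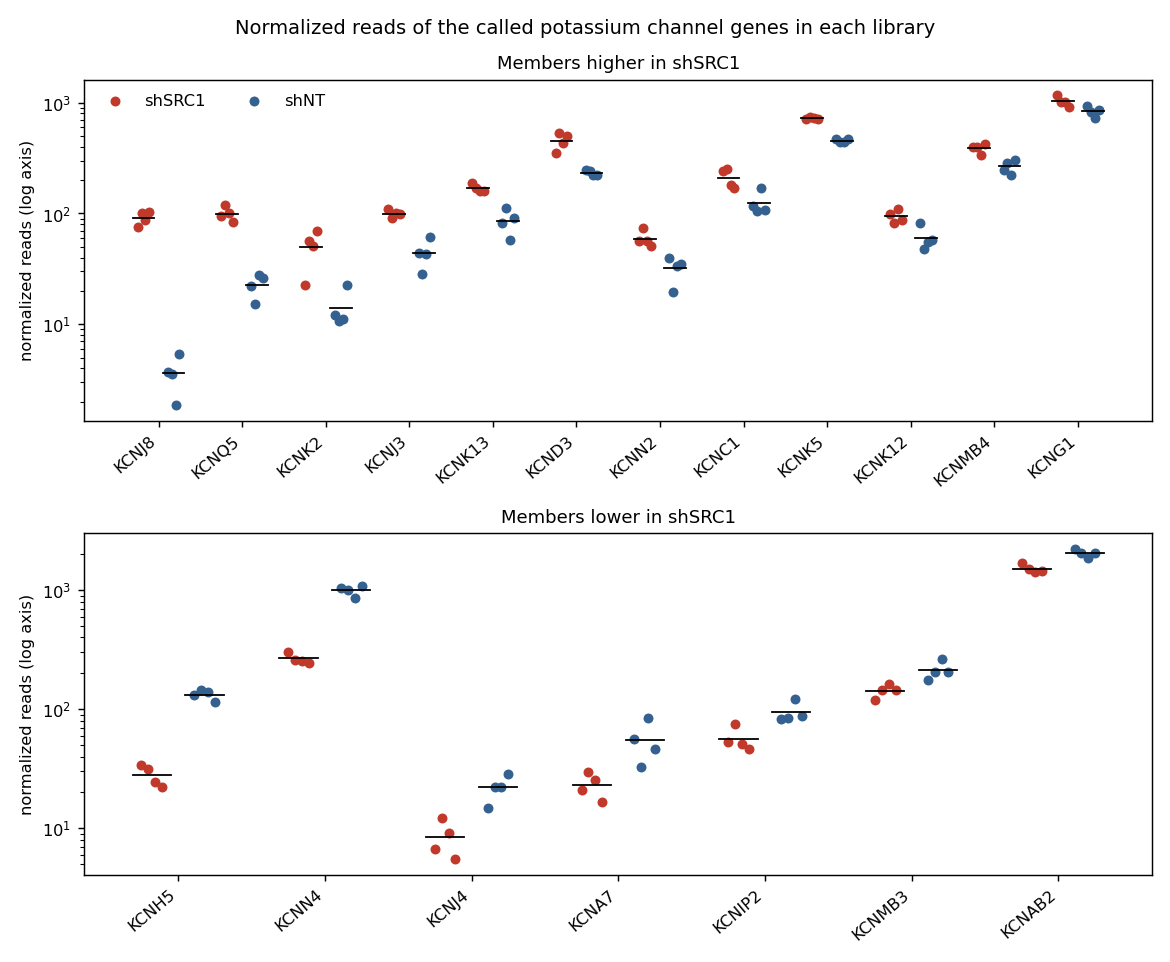
Normalized reads on a log axis of the 12 channel genes called higher and 7 of the 8 called lower, 1 point per library (4 shSRC1 and 4 shNT), with bars at the group means. KCNJ8 has shSRC1 points of 75.0 to 104 against shNT points of 1.86 to 5.38, and KCNN4 has shSRC1 points of 247 to 304 against shNT points of 852 to 1081.

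The voltage-gated genes held large changes in both directions. KCNQ5 encodes a subunit of the M-current, the slow current that steadies neurons against repeated firing. It had 94.9, 119, 101 and 83.4 normalized reads in shSRC1, against 22.3, 15.1, 27.9 and 26.0 in shNT. Every shSRC1 library was well above every shNT library, and the ratio of means was 4.36, on 370 reads in shSRC1 and 100 in shNT. Its log2 fold change was 2.10 (95% confidence interval 1.60 to 2.60, SE 0.23, adjusted p = 2.31e-05). KCNH5, an ether-a-go-go channel of brain, moved the other way. It had 34.2, 31.5, 24.5 and 22.0 normalized reads in shSRC1, against 131, 144, 138 and 114 in shNT. No shSRC1 library came near the shNT range, and KCNH5 was 4.70-fold lower, on 105 reads in shSRC1 and 579 in shNT. This was a log2 fold change of -2.21 (95% confidence interval -2.64 to -1.78, SE 0.20, adjusted p = 3.04e-06). KCNH2, the hERG channel that repolarizes the heart, averaged 436 ± 45.8 in shSRC1 and 351 ± 54.0 in shNT (SD, n = 4 each) and was not called (limma adjusted p = 0.0844).

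KCND3 encodes a fast-inactivating A-type channel of heart and neurons. It had 348, 534, 435 and 505 normalized reads in shSRC1, against 246, 239.9, 223 and 221 in shNT. The shSRC1 libraries varied more among themselves but all exceeded the shNT libraries, with a log2 fold change of 0.95 (adjusted p = 2.13e-04, SE 0.13). KCNIP2, a calcium-binding subunit that increases the surface delivery of such A-type pores, went the opposite way, with 53.2, 75.2, 50.9 and 45.8 in shSRC1, against 82.6, 84.4, 123 and 87.0 in shNT. The groups did not overlap, and shNT replicate 3 was the highest. The KCNIP2 log2 fold change was -0.74 (adjusted p = 0.0193, SE 0.21), and it was no longer called without shSRC1 replicate 1 (adjusted p = 0.0515) or 4 (0.0587). KCNIP4 of the same family averaged 88.9 ± 17.1 in shSRC1 and 137 ± 58.8 in shNT (SD, n = 4 each; limma adjusted p = 0.107). Its shNT replicate 3 value was 224, against 97.4 to 121 in the other shNT libraries, and without it the log2 fold change of -0.55 became -0.29 (adjusted p = 0.284). KCNIP3, also known as the transcriptional repressor DREAM, averaged 1264 ± 85.9 in shSRC1 and 1203 ± 107 in shNT (SD, n = 4 each; limma adjusted p = 0.586). DPP10, another partner of A-type pores, had 0 reads in all libraries. The related DPP6 averaged 15.0 ± 1.35 in shSRC1 and 10.9 ± 3.88 in shNT (SD, n = 4 each, limma adjusted p = 0.326).

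KCNC1 encodes a channel that repolarizes fast-firing neurons. It had 242, 250.2, 181 and 170.5 normalized reads in shSRC1, against 118, 105, 171 and 108 in shNT. The lowest shSRC1 and the highest shNT library nearly coincided, so the groups overlapped. This gave a log2 fold change of 0.75 (adjusted p = 0.00951, SE 0.18). KCNA7, a Shaker-type channel, was lower, with 20.9, 29.7, 25.4 and 16.5 in shSRC1, against 56.6, 32.9, 83.6 and 46.6 in shNT. The groups did not overlap, and the log2 fold change was -1.16 (adjusted p = 0.0121, SE 0.30).

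A subset of voltage-gated genes encodes silent subunits, which carry no current alone and modify other voltage-gated pores. In these cells the silent subunits KCNS3, KCNG1, KCNF1 and KCNV1 averaged 576, 420, 332 and 50.8 normalized reads per kb over all libraries. The silent subunits together made up 68.2 to 69.8% of the summed per-kb level of the voltage-gated genes in the shSRC1 libraries and 59.5 to 71.1% in the shNT libraries. These ranges overlap, and the lowest share is that of shNT replicate 3, with 67.1 to 71.1% in the other shNT libraries. KCNG1 was the only silent subunit called, with 1167, 1006, 1010 and 918 normalized reads in shSRC1, against 927, 827, 720.4 and 858 in shNT. The groups overlapped slightly, and the log2 fold change of 0.30 (adjusted p = 0.0481, SE 0.10) was lost when shSRC1 replicate 1, 2 or 3 (adjusted p = 0.128, 0.0859 and 0.0868) or shNT replicate 2, 3 or 4 (0.0721, 0.0901 and 0.0733) was left out, and without a filter on low values (0.0984). KCNS3 averaged 1346 ± 108 in shSRC1 and 1414 ± 192 in shNT (SD, n = 4 each), a log2 fold change of -0.06 (95% confidence interval -0.29 to 0.16). KCNF1 averaged 703 ± 115 in shSRC1 and 815 ± 77.1 in shNT (SD, n = 4 each), a log2 fold change of -0.22 (limma adjusted p = 0.18) that was -0.33 without shSRC1 replicate 1 (adjusted p = 0.0464).

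Among calcium-activated channels, KCNN4 fell and KCNN2 rose. KCNN4 encodes the intermediate-conductance channel that hyperpolarizes T cells, red cells and many epithelial tumor cells. It had 304, 261, 255 and 247 normalized reads in shSRC1, against 1044, 1004, 852 and 1081 in shNT. The groups were far apart, with tight replicates on both sides, and KCNN4 was 3.73-fold lower in shSRC1. In limma the log2 fold change was -1.90 (95% confidence interval -2.13 to -1.66, SE 0.11), and its adjusted p of 2.46e-08 was the smallest of the 51 channel genes. KCNN2, a small-conductance relative known from the afterhyperpolarization of neurons, was the scarcer of the pair, at 14.4 normalized reads per kb in shSRC1 and 7.79 in shNT, against 118.8 and 444 for KCNN4. It had 56.0, 73.5, 56.3 and 51.3 normalized reads in shSRC1, against 39.9, 19.5, 33.4 and 35.0 in shNT. The ranges stayed apart. Its log2 fold change was 0.90 (adjusted p = 0.0183, SE 0.25), and it was not called without shSRC1 replicate 2 (adjusted p = 0.0577).

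The large-conductance BK channel responds to both voltage and calcium and combines the pore KCNMA1 with tissue-specific beta and gamma subunits. KCNMA1 had 738, 805, 794 and 781 normalized reads in shSRC1 and 845, 836, 733 and 823 in shNT. The groups overlapped, with a log2 fold change of -0.05 (95% confidence interval -0.24 to 0.14, limma adjusted p = 0.692). KCNMB4, the beta subunit typical of neurons, was higher, with 399.7, 401, 334 and 422 in shSRC1, against 249, 288, 225 and 306 in shNT. Its groups did not overlap and the log2 fold change was 0.55 (adjusted p = 0.00731, SE 0.13). KCNMB3, another beta subunit, had 119.6, 145, 162 and 145 in shSRC1, against 175, 206, 266 and 205 in shNT. Every shSRC1 library lay below every shNT library (log2 fold change -0.56, adjusted p = 0.017, SE 0.15), but the call was lost without shSRC1 replicate 1 (adjusted p = 0.0559). KCNMB3 exons overlap those of PIK3CA on the opposite strand, which was also lower in shSRC1 (limma adjusted p = 0.00784). They also overlap LRRFIP1P1 on the same strand, which averaged 172 ± 27.4 in shSRC1 and 206 ± 29.1 in shNT (SD, n = 4 each). LRRFIP1P1 was not called (limma adjusted p = 0.236). A pseudogene copy of KCNMB3 also exists, so the KCNMB3 value is uncertain. The gamma subunit LRRC26, which lets BK open at resting calcium in secretory epithelia, averaged 179 ± 44.5 in shSRC1 and 216 ± 55.9 in shNT (SD, n = 4 each; limma adjusted p = 0.383). The last called accessory gene was KCNAB2, a beta subunit of Shaker-type channels with an aldo-keto reductase fold, with 1688, 1503, 1408 and 1448 in shSRC1, against 2219, 2044, 1863 and 2034 in shNT. Its groups did not overlap (log2 fold change -0.43, adjusted p = 0.00314, SE 0.09), and its exons overlap those of NPHP4 on the opposite strand, which was not called (limma adjusted p = 0.27).

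Levels per kilobase place these changes on the scale of the whole family. KCNK15 led in both groups, at 1570 normalized reads per kb in shSRC1 and 1403 in shNT, followed by KCNK1 at 954 in shSRC1 and 1114 in shNT and KCNK6 at 707 in shSRC1 and 620.3 in shNT. The summed per-kb level of the two-pore genes was 3349 to 3787 in the shSRC1 libraries and 2755 to 3537 in the shNT libraries, so the groups overlapped, with shNT replicate 3 the lowest. The summed per-kb level of the calcium-activated genes was 187 to 210.1 in shSRC1 and 449 to 558 in shNT, of which KCNN4 was the larger part in both groups. These ranges do not overlap, and the sum adds no evidence to that of KCNN4. The genes with the largest folds, KCNJ8, KCNQ5, KCNK2 and KCNH5, all lay at or below 38.4 per kb in both groups, so the largest relative changes were in scarce channels, with KCNN4 the exception.

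**Figure D3:**
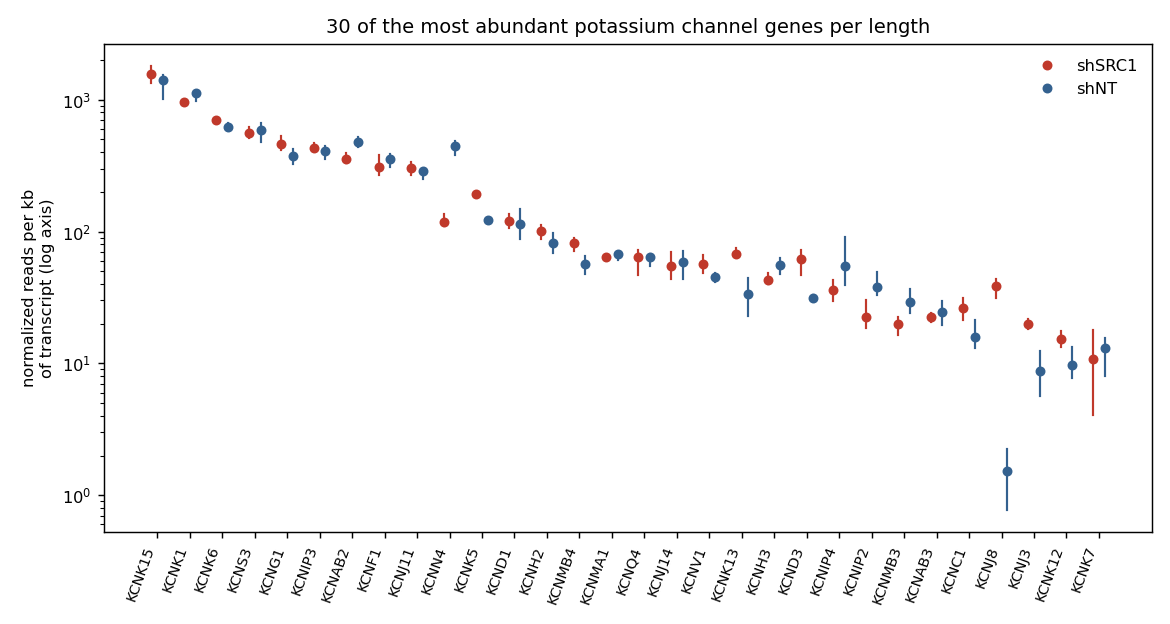
Normalized reads per kb of the longest protein-coding transcript, on a log axis, for 30 of the channel genes with the highest averages over all libraries, with points for the group mean and lines from the lowest to the highest of 4 libraries. KCNK15 leads at 1570 in shSRC1 and 1403 in shNT, and KCNN4 (118.8 and 444) and KCNJ8 (38.4 and 1.52) show the widest gaps between shSRC1 and shNT.

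Genes that work with these channels were read from lists of pumps, cotransporters, regulators and other potassium or cation channels. Of 50 such genes 37 were tested, with 8 higher in shSRC1, 4 lower and 25 not called. Over all tested genes, 12.0% were called higher and 11.2% lower, and the partner counts carry no test of their own. ATP4A, the catalytic subunit of the gastric proton pump that exchanges protons for potassium, changed most. It had 765, 1004, 849 and 816 normalized reads in shSRC1, against 133, 118, 105 and 88.8 in shNT. The groups were far apart, with a ratio of 7.72 and a log2 fold change of 2.95 (adjusted p = 3.97e-09, SE 0.14). Its beta subunit gene ATP4B, needed for a working pump, had 0 reads in shSRC1 and 1 in shNT. The potassium-chloride cotransporter gene SLC12A7 averaged 2109 ± 245 in shSRC1 and 3255 ± 232 in shNT (SD, n = 4 each), a log2 fold change of -0.63 (limma adjusted p = 3.02e-04). The sodium-potassium-chloride cotransporter gene SLC12A2, which loads epithelial cells with potassium and chloride, averaged 5144 ± 479 in shSRC1 and 7409 ± 393 in shNT (SD, n = 4 each), a log2 fold change of -0.53 (limma adjusted p = 6.35e-04). Both cotransporters were thus lower in shSRC1, and the other 3 tested of the family were not called.

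SGK1, a steroid-induced kinase that raises potassium channel and sodium channel activity in kidney, had 149, 152, 118 and 154 normalized reads in shSRC1, against 62.2, 80.0, 73.3 and 80.7 in shNT. The ranges stayed apart, and the log2 fold change was 0.94 (limma adjusted p = 0.00107). ORAI3 and ORAI2 encode subunits of store-operated calcium channels, whose current depends on the driving force that potassium channels supply. ORAI3 averaged 619.7 ± 63.3 in shSRC1 and 428 ± 53.6 in shNT, and ORAI2 averaged 5971 ± 494 in shSRC1 and 4590 ± 473 in shNT (SD, n = 4 each), with log2 fold changes of 0.54 and 0.38 (limma adjusted p = 0.00444 and 0.00936). Both were higher, and the other 4 of 6 calcium entry genes tested were not called. CCDC51, which encodes the pore subunit of the mitochondrial ATP-sensitive potassium channel, averaged 1204 ± 32.3 in shSRC1 and 877 ± 136 in shNT (SD, n = 4 each), a log2 fold change of 0.47 (limma adjusted p = 0.00721). Its lowest shNT value, 686, was that of shNT replicate 3, and without that library the log2 fold change was 0.36 (adjusted p = 0.00512). ABCB8, which encodes the other subunit of this channel, was not called (log2 fold change -0.05, limma adjusted p = 0.709). HCN3, a hyperpolarization-activated channel gene, averaged 737 ± 74.7 in shSRC1 and 1022 ± 157 in shNT (SD, n = 4 each), a log2 fold change of -0.46 (limma adjusted p = 0.0107). HCN4 of the same family went the other way, with 18.3 to 36.7 normalized reads in shSRC1 and 8.00 to 14.9 in shNT. Its log2 fold change was 1.12 (limma adjusted p = 0.0276), on 90 reads in shSRC1 and 48 in shNT. HCN2 was not called (log2 fold change 0.04, limma adjusted p = 0.805).

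**Figure D4:**
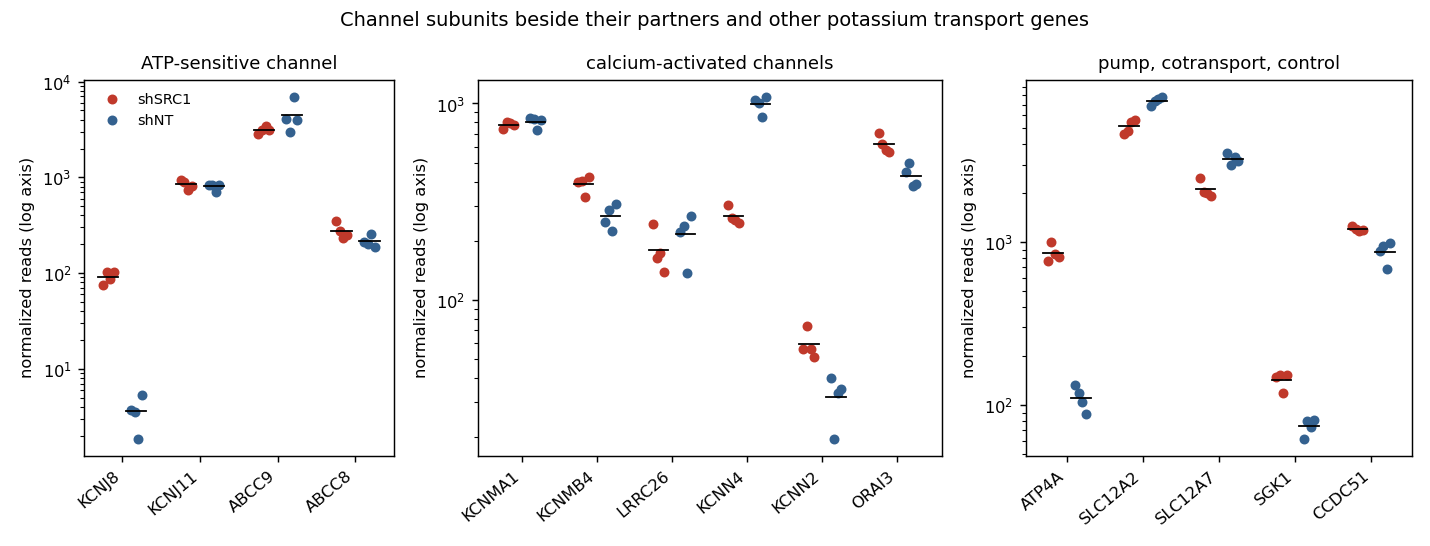
Normalized reads on log axes, 1 point per library (4 shSRC1 and 4 shNT) with bars at the group means, for ATP-sensitive channel genes, calcium-activated channel genes with LRRC26 and ORAI3, and pump, cotransporter and regulator genes. KCNJ8 and ATP4A (858 ± 103 in shSRC1, 111 ± 18.7 in shNT) separate the groups most, while KCNJ11 and KCNMA1 overlap.

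The channel genes are spread over the genome, and each was set beside the 5 nearest tested protein-coding genes on either side of it. The 10 neighbours of KCNJ8 had a median log2 fold change of -0.18, with 1 of them, the sialyltransferase gene ST8SIA1, called higher (2.12, limma adjusted p = 0.00802). For KCNQ5 the neighbours' median was 0.09, for KCNH5 -0.12 and for KCNK2 -0.03. The neighbours of KCNN4 had a median of 0.00, and among them PLAUR, the urokinase receptor gene, was lower (-1.21, limma adjusted p = 8.02e-05). KCNK5 had the highest neighbour median of the called channel genes, 0.35, with 4 of 10 neighbours higher and 1 lower, and KCNA7 the lowest, -0.25, with 2 higher and 4 lower. Over all 51 tested channel genes the neighbour medians ran from -0.28 to 0.38.

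**Figure D5:**
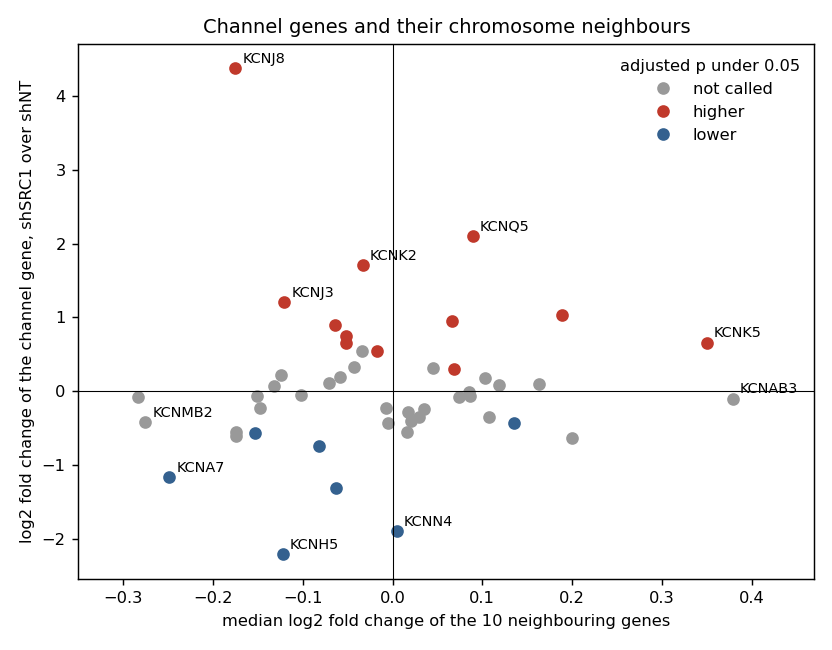
Log2 fold change of 49 of the 51 tested channel genes, shSRC1 over shNT, against the median log2 fold change of its 10 neighbouring tested protein-coding genes, 1 point per channel gene colored by its call. The neighbour medians stay between -0.28 and 0.38, while the channel genes reach 4.37 (KCNJ8) and -2.21 (KCNH5).

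Of the 95 channel genes, 44 were below the filter, 34 of them with at least 1 read and 10 without any. Those without a read were KCNK16, KCNK10, KCNK18, KCNA10, KCNA6, KCNA4, KCNG4, KCNIP1 and the second identifiers of KCND1 and KCNJ12. Among the genes just inside the filter, with exactly 4 libraries at 10 or more, were KCNV2, KCNH6 and KCNJ8. Among those just outside it, with 3 libraries, were KCNJ13 at 7.25 normalized reads in shSRC1 and 12.3 in shNT, KCNA1 at 1.59 in shSRC1 and 16.5 in shNT, KCNH1, KCNK9 and KCNJ10. A pair of genes below the filter were called when every gene with a read was fitted. KCNA1, the Shaker-type channel of myelinated axons, had 6 reads in shSRC1 and 72 in shNT, a log2 fold change of -2.71 (adjusted p = 5.13e-04, SE 0.51). KCNK3, the acid-sensitive TASK-1, had 42 reads in shSRC1 and 12 in shNT, a log2 fold change of 2.03 (adjusted p = 0.0166, SE 0.56).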

How the data were processed

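Poly(A) RNA of 8 LY2 libraries, 4 shSRC1 and 4 shNT, was sequenced by the study. Groups and replicate numbers come from the labels. The channel genes, partner lists, markers and tests were chosen with earlier results of these data known.

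The submitters' processing notes say that the reads were processed on GRCh37 with TopHat2 2.0.12 and HTSeq 0.6.1 and also DESeq and DESeq2; annotation and counting strand are not stated. The authors deposited a signal per gene, reads over a size factor for each library, called normalized reads here. All values were whole reads within 0.001 once multiplied by the size factor (100.0% whole). Because the values are not counts, the test was limma 3.58.1 (R 4.3.3) with trend and robust variances on log2(value + 1), which understates changes of low genes, for 19559 genes with at least 10 in at least 4 libraries. Two-sided p-values were adjusted by Benjamini-Hochberg across the 19559, and the threshold was 0.05. The fit was tested on simulated data. edgeR 4.0.16 and DESeq2 1.42.0 ran on the recovered reads as alternatives.

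Read numbers given per group are recovered reads. GENCODE 29 (GRCh38) gave gene order, exon overlaps and the length of the longest protein-coding transcript, joined by Ensembl identifier; no GENCODE coordinates are given. Promoters are RefSeq on GRCh38.p14. Genes named were KCNJ8, every called channel gene, up to 2 uncalled channel genes of each class with the most reads, ABCC8, ABCC9 and at most 8 called partners by smallest adjusted p. KCNH2, KCNK1, KCNJ6, KCNV1, LRRC26, ATP4B, DPP10, DPP6, HCN2, HCN4, ABCB8, exon-overlapping genes, ST8SIA1, PLAUR, KCNA1 and KCNK3 were added after their values were seen. A few genes are not reported here.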

Additional observations from a re-analysis of the deposited data

Results flagged for a closer look

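In 5 of 80 combinations of a named gene and a group of 4 libraries, 1 library lay far from the other 3 by Dixon's criterion, which chance meets in about 1 of 20 groups. In shNT replicate 3, KCNIP2 had 122.5 normalized reads against 82.6 to 87.0 in the other shNT libraries, KCNJ11 had 702.8 against 833 to 841, and KCNK15 had 2634 against 3962 to 4017. KCNK2 had 22.4 in shNT replicate 4 against 10.7 to 12.1 in the other shNT libraries. SGK1 had 118.1 in shSRC1 replicate 3 against 149 to 154 in the other shSRC1 libraries.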

How the results depend on the processing

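The alternatives were TMM and upper-quartile scaling, no filter, a minimum of 50, pseudocounts of 0.5 and 5, edgeR, DESeq2, the replicate block and each library left out in turn, 17 in all. Channel genes called higher numbered 9 to 14 and those called lower 6 to 10. Of the 20 called channel genes, 13 stayed called under every alternative that tested them; KCNJ8 was tested in 13, with log2 fold changes of 3.49 (pseudocount 5) to 4.64 (DESeq2). Those that did not, 7 in all, included KCNIP2, KCNMB3, KCNN2, KCNJ4, KCNK12 and KCNG1. KCNK12 also missed the threshold without a filter (adjusted p = 0.0508), and KCNK6 passed it in DESeq2 (adjusted p = 0.0437). Over all tested genes, leaving out 1 library gave 1648 to 2525 called higher and 1450 to 2251 called lower, the lowest without shSRC1 replicate 2, where 1398 of the 2194 genes called lower remained. KCNJ14, not called under any setting, ran from -0.209 to 0.0229 on the log2 scale when 1 library was left out and was positive in 3 of the 8 cases, those without shSRC1 replicate 3 or shNT replicate 1 or 3; the cause was not tested.

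Same-numbered libraries of the 2 groups deviated together with correlations of 0.24, -0.01, 0.13 and 0.14, and 3 of the 4 matched their own number best. Since not every pair passed 0.1, the numbers were not taken as pairs. With the replicate block 3290 of all tested genes were called higher and 3108 lower, against 2344 and 2194 without it, and 14 channel genes were higher and 10 lower, KCNK6 (adjusted p = 0.0364) and KCNIP4 (0.0341) among them. Depth limits the scarce genes most, since KCNJ4, KCNK2, KCNH5 and KCNJ8 rest on 16 to 579 reads per group.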
